A study of Homo sapiens with 12 samples.

Results

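The iron- and 2-oxoglutarate-dependent dioxygenases were followed as 44 listed genes of the 36459 gene symbols in the deposited table of estimated counts. The members were taken by symbol, all 44 were in the table, and all 44 passed the filter on low counts that left 14209 genes for testing. By role they comprised 14 histone lysine demethylases, 3 TET methylcytosine dioxygenases, 5 other JmjC hydroxylases, 4 hydroxylases of the hypoxia-inducible factor (HIF), 9 members of the ALKBH family with FTO, 7 hydroxylases of collagen and of the endoplasmic reticulum (ER), and OGFOD1 with OGFOD2. 3 broader classes were also compared: 17 demethylases of histones and DNA, 10 prolyl and lysyl hydroxylases (EGLN1, EGLN2, EGLN3, P4HA1, P4HA2, PLOD1, PLOD2, PLOD3, P3H1 and OGFOD1), and the 9 ALKBH and FTO enzymes.

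The cells were HEK293, an immortalised line derived from human embryonic kidney, in 4 groups of 3 sequencing libraries. The groups received vehicle, oleic acid (a monounsaturated fatty acid), FAC (ferric ammonium citrate, which supplies iron), or both agents, written oleic acid + FAC. The series title places the comparison in the study of oleic acid and iron overload. The sources used here give neither doses nor treatment times, and a control for the ammonium and citrate of FAC is not among the 4 groups. The labels do not say that the replicates were separate cultures, so the p-values measure the spread between these libraries, which may be technical.

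The enzymes of this family hold a ferrous iron ion in their active site and use oxygen and 2-oxoglutarate as co-substrates, releasing succinate and carbon dioxide, and ascorbate helps to keep the iron reduced. With this chemistry they hydroxylate proteins or remove methyl groups from histones, DNA and RNA. Their best known members are the prolyl hydroxylases that mark HIF for degradation when oxygen and iron suffice. The values here are RNA levels and say nothing of enzyme activity.

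Library totals lay between 14098216 and 18717397 estimated counts, so that 3 counts, the floor used for an undetected transcript, equalled 0.16 to 0.213 CPM, the unit of level used here (counts at an equal library size after TMM scaling). In each oleic acid group the third library stood apart. The deviation of these libraries, oleic acid first, from their group mean fell with transcript length across 14030 genes (r = -0.52 and -0.39, against -0.23 to 0.36 in the others), and the SD of that deviation was 0.406 on the log2 scale in both, against 0.254 to 0.330. Mitochondrial genes took 7.09% and 12.1% of their counts, against 3.33% to 7.50% in the other libraries. The markers expected in HEK293 were expressed (6 markers, summed level 825 to 1860 CPM, with VIM the highest). Summed markers of endothelium (5 genes) reached at most 2.57 CPM, those of blood and immune cells (5 genes) 5.46, those of hepatocytes (4 genes) 0.454 and those of fibroblasts (6 genes, mostly COL1A1) 21.5, and HBB and SERPINA1 were at 0 in all 12 libraries.

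To compare levels between genes, counts were divided by transcript length and scaled to the same total in each library (TPM). In the vehicle libraries ALKBH5, which removes methyl groups from adenosine in RNA, had the highest level per length among the members, at 121 ± 1.26 TPM (SD, n = 3). It was followed by JMJD8 at 73.3 ± 3.23 and OGFOD1, a prolyl hydroxylase of a ribosomal protein, at 64.3 ± 1.83. The ranges of these 3 genes did not overlap in the vehicle group, while KDM3B (60.8 ± 8.04) and ALKBH3 (60.0 ± 12.2), next in order, overlapped each other and OGFOD1, and ALKBH3 overlapped JMJD8. The lowest levels per length were those of TET1 (6.46 ± 0.716), TET2 (4.90 ± 0.753) and KDM8 (3.29 ± 0.949), and the TET enzymes, which oxidise methylcytosine in DNA, ranked 39, 42 and 43 of 44.

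**Figure D1:**
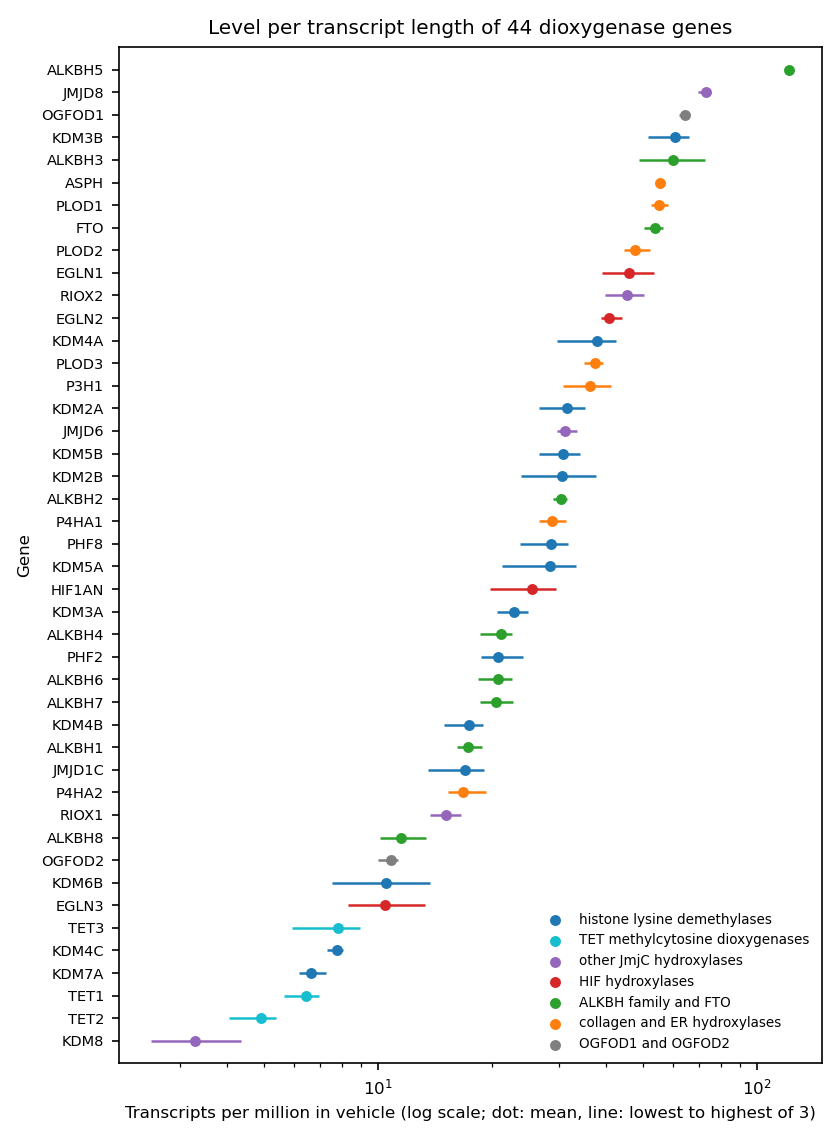
Level per transcript length of the 44 genes in the vehicle libraries (horizontal axis, TPM from annotated lengths, log scale), with points for the mean of 3 libraries, lines from the lowest to the highest library and colours for the role group. ALKBH5 at 121 lies highest and KDM8 at 3.29 lowest, with the 3 TET genes between 4.90 and 7.82.

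With iron, 5 of these genes passed the test, each changed by less than 1 unit on the log2 scale. Averaged over the groups with and without oleic acid (6 FAC libraries against 6 others), 5 of 44 members passed edgeR's quasi-likelihood test at a Benjamini-Hochberg adjusted p under 0.05, or 11.4%, where 8.76% of all tested genes did. RIOX2, HIF1AN and ALKBH8 were lower with FAC and ALKBH1 and KDM6B were higher. The member count is near the background: 3 fell, or 6.82% where 5.48% of all genes fell, and 2 rose, or 4.55% against 3.27%. The count was 8 without the 2 libraries that stood apart, 8 with each library's trend on transcript length removed, 14 with that and a replicate block, and 3 to 7 with any 1 library left out. The median log2 fold change of the 44 was 0.02, against 0.00 over all genes. In the comparison of FAC with vehicle alone, 3 of 44 members passed (6.82%, against 1.19% of all genes), all 3 lower, where 0.732% of all genes fell and 0.457% rose. With oleic acid present in both groups, 2 of 44 passed (4.55%, against 2.21%), both lower, where 1.45% of all genes fell and 0.760% rose. With the replicate number as a block the same 2 members passed there, while the count over all genes went from 314 to 740. Leaving out 1 library left 3 to 7 members past the test for the averaged effect, the 3 being RIOX2, HIF1AN and ALKBH8 (without the second library of any group or the third FAC library). It left 0 or 1 for FAC against vehicle, whichever library was left out. With oleic acid in both groups it left 0 (without the first oleic acid or the second oleic acid + FAC library), 1 (without the second oleic acid library, or either the first or the last of the oleic acid + FAC libraries) or 2. CPM is a share of the library's counts, so that fewer cells making an RNA and less of that RNA per cell cannot be told apart.

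**Figure D2:**
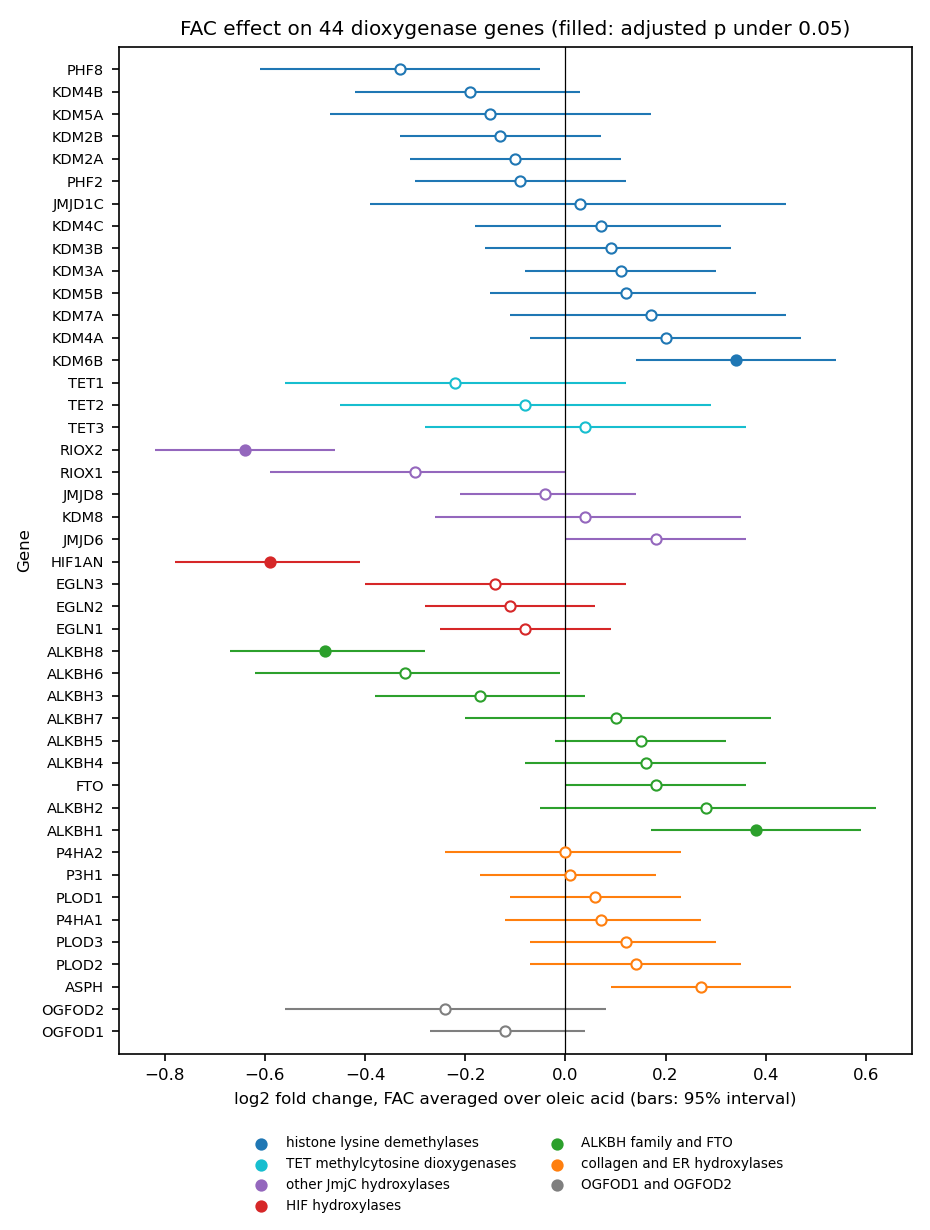
Log2 fold change of the 44 genes with FAC, averaged over the groups with and without oleic acid (horizontal axis), with bars for the 95% confidence interval, grouped by role, and filled symbols for adjusted p under 0.05 in edgeR. RIOX2 (-0.64), HIF1AN (-0.59) and ALKBH8 (-0.48) lie to the left of the rest, and ALKBH1 (0.38) and KDM6B (0.34) furthest right.

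RIOX2 had the smallest adjusted p of the 44. It encodes a nucleolar JmjC enzyme that hydroxylates a histidine of a ribosomal protein, and lies at chr3:97941818-97972457 on the minus strand (GRCh38, GENCODE release 29). It stood at 43.6, 48.5 and 56.4 CPM with vehicle, 53.6, 48.5 and 53.6 with oleic acid, 31.1, 30.3 and 35.1 with FAC and 32.3, 30.9 and 35.4 with oleic acid + FAC. All 6 FAC libraries lay below all 6 others. The log2 fold change was -0.62 (SE 0.12, edgeR adjusted p = 0.0251) against vehicle, -0.66 (SE 0.12, adjusted p = 0.0170) with oleic acid in both groups and -0.64 (SE 0.08, adjusted p = 7.6e-04) averaged. RIOX2 overlaps CRYBG3 on the other strand over 3146 bases, 1898 of them in annotated exons of both genes, and the sources used here do not give the strand setting of the counting, so reads of the shared stretch cannot be assigned to either strand with certainty. With any 1 of the 6 libraries left out, RIOX2 passed in 1 of 6 fits of FAC against vehicle and in 3 of 6 with oleic acid in both groups, and the averaged effect passed in all 12 such fits.

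RIOX1, the nucleolar relative of RIOX2 that acts on another ribosomal protein, was also lower with FAC on average but did not pass. It stood at 23.3, 20.03 and 18.6 CPM with vehicle, 18.3, 17.6 and 28.8 with oleic acid, 15.9, 15.1 and 19.4 with FAC and 17.2, 15.5 and 19.95 with oleic acid + FAC. The averaged log2 fold change was -0.30 (95% confidence interval -0.59 to -0.00, edgeR adjusted p = 0.207), and the groups overlapped, with the highest value in the third oleic acid library. The other JmjC hydroxylases were KDM8, JMJD6, a lysyl hydroxylase of splicing factors kept here with the JmjC proteins and not in the prolyl and lysyl class, and the ER protein JMJD8. None of these 3 passed, and their averaged log2 fold changes were 0.04, 0.18 and -0.04.

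HIF1AN fell by nearly as much as RIOX2. It encodes the asparaginyl hydroxylase known as factor inhibiting HIF, which blocks the binding of a coactivator to HIF-alpha, and lies at chr10:100529072-100559998 on the plus strand. It stood at 76.6, 88.1 and 88.9 CPM with vehicle, 84.5, 93.2 and 71.7 with oleic acid, 56.96, 56.2 and 59.98 with FAC and 57.4, 54.8 and 48.2 with oleic acid + FAC. The 6 FAC libraries lay below all 6 others, and the lowest value was in the third oleic acid + FAC library. The log2 fold change was -0.55 (SE 0.12, edgeR adjusted p = 0.0448) against vehicle, -0.64 (SE 0.12, adjusted p = 0.0202) with oleic acid in both groups and -0.59 (SE 0.08, adjusted p = 0.00116) averaged. HIF1AN shares 929 bases with NDUFB8 on the other strand, 325 of them in exons of both, a gene with 29734 counts over the 12 libraries against 14099 for HIF1AN. It passed in 0 of 6 fits with a library left out for FAC against vehicle, in 2 of 6 with oleic acid in both groups and in all 12 for the averaged effect.

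The other HIF hydroxylases are the prolyl hydroxylases EGLN1, EGLN2 and EGLN3, which mark HIF-alpha for VHL. All 3 were slightly lower with FAC on average, with log2 fold changes of -0.08, -0.11 and -0.14, and none passed. Their 95% confidence intervals ran from -0.40 to 0.12. EGLN2 had the smallest adjusted p of the 3 (edgeR adjusted p = 0.409) and stood at 42.1, 42.02 and 42.5 CPM with vehicle, 39.6, 40.3 and 48.2 with oleic acid, 39.99, 37.1 and 44.9 with FAC and 37.3, 38.8 and 37.6 with oleic acid + FAC. Its FAC and vehicle libraries overlapped, and all 3 oleic acid + FAC values were below all 3 oleic acid values.

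Of 5 listed HIF subunits and VHL, 4 were tested and 0 passed in any of the 6 comparisons, where at most 8.76% of all genes did. VHL, which had the lowest averaged value, had a log2 fold change of -0.61 (edgeR adjusted p = 0.0585). Of 24 listed HIF target genes, 23 were tested and 0 passed in FAC against vehicle, where 1.19% of all genes did. In the averaged comparison 1 passed, where 8.76% of all genes did. That gene was MXI1, an antagonist of MYC family proteins, which rose by a log2 fold change of 0.27 (SE 0.07, edgeR adjusted p = 0.0410), from 58.9 ± 4.07 CPM with vehicle to 69.9 ± 1.40 with FAC (SD, n = 3). It passed in 3 of 12 fits with a library left out. 6 of the members are themselves on the target list (KDM3A, EGLN1, EGLN3, P4HA1, P4HA2 and PLOD2), and none passed.

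Among the nucleic acid enzymes, ALKBH8 fell and ALKBH1 rose. ALKBH8 modifies the wobble uridine of transfer RNAs and lies at chr11:107502726-107565746 on the minus strand. It stood at 22.6, 21.01 and 28.4 CPM with vehicle, 19.9, 21.7 and 21.1 with oleic acid, 16.9, 15.3 and 16.2 with FAC and 15.8, 15.8 and 16.5 with oleic acid + FAC. All 6 FAC values lay below all 6 others, and the spread with FAC was small (SD 0.796 and 0.389 CPM, n = 3 each). The log2 fold change was -0.57 (SE 0.13, edgeR adjusted p = 0.0469) against vehicle and -0.48 (SE 0.09, adjusted p = 0.00558) averaged. With oleic acid in both groups it was -0.38 (SE 0.13, adjusted p = 0.147), which did not pass. Against vehicle ALKBH8 passed in 0 of 6 fits with a library left out, and averaged in all 12.

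ALKBH1, a dioxygenase of transfer RNA and DNA, lies at chr14:77672404-77708020 on the minus strand. It stood at 21.8, 19.6 and 18.1 CPM with vehicle, 19.6, 16.9 and 22.5 with oleic acid, 22.3, 25.3 and 28.1 with FAC and 25.7, 27.5 and 24.8 with oleic acid + FAC. The oleic acid + FAC libraries lay above the oleic acid libraries, as did the FAC libraries above the vehicle libraries, while the first FAC value lay below the third oleic acid value. The averaged log2 fold change was 0.38 (SE 0.10, edgeR adjusted p = 0.0275), and the values within each arm, 0.35 and 0.41, did not pass (adjusted p = 0.297 and 0.150). The averaged rise passed in 5 of 12 fits with a library left out.

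FTO and ALKBH6 had an unadjusted p under 0.05 in the averaged comparison and did not pass after adjustment. FTO, a demethylase of adenosine in RNA, stood at 62.5, 60.4 and 62.8 CPM with vehicle, 63.2, 67.8 and 51.6 with oleic acid, 71.5, 66.8 and 69.6 with FAC and 77.5, 68.9 and 63.5 with oleic acid + FAC, with a log2 fold change of 0.18 (95% confidence interval 0.00 to 0.36, edgeR adjusted p = 0.209). ALKBH6 stood at 12.2, 10.1 and 11.8 CPM with vehicle, 14.01, 12.02 and 19.2 with oleic acid, 11.1, 9.63 and 8.95 with FAC and 10.01, 9.48 and 13.99 with oleic acid + FAC, with a log2 fold change of -0.32 (95% confidence interval -0.62 to -0.01, edgeR adjusted p = 0.191). FTO was higher in every FAC library than in every vehicle library, and the highest ALKBH6 value was in the third oleic acid library. The other 5, ALKBH2 and ALKBH3 (DNA repair), ALKBH4, ALKBH5 and ALKBH7, ranged from -0.17 to 0.28 and none passed.

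On the other side of the methyladenosine marks, METTL14, a subunit of the complex that writes them, rose with FAC. It went from 29.6 ± 2.02 CPM with vehicle to 40.1 ± 2.95 with FAC, and from 30.8 ± 1.49 with oleic acid to 41.3 ± 3.46 with both (SD, n = 3 each). Its averaged log2 fold change was 0.43 (SE 0.08, edgeR adjusted p = 0.00457). METTL3 and WTAP, listed with it from the same complex, did not pass. METTL14 was 1 of 24 listed enzymes that write histone, DNA or RNA methylation. Of these 0 passed in FAC against vehicle, where 1.19% of all tested genes did. In the averaged comparison 2 rose and 1 fell, where 3.27% of all tested genes rose and 5.48% fell. The others were the histone H3 methyltransferases SUV39H1, which rose by 0.29 (SE 0.08, adjusted p = 0.0344), and EHMT2, which fell by 0.28 on the log2 scale (SE 0.08, adjusted p = 0.0372). With a library left out, METTL14 passed in 12 of 12 fits, SUV39H1 in 3 and EHMT2 in 2.

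Of the 14 histone demethylases, 1 passed in the averaged comparison, where 8.76% of all genes did. It was KDM6B. This enzyme, which removes the repressive methyl mark set by Polycomb on histone H3, lies at chr17:7839904-7854796 on the plus strand. It stood at 28.1, 34.8 and 37.7 CPM with vehicle, 36.3, 32.4 and 29.96 with oleic acid, 48.6, 48.6 and 44.4 with FAC and 35.9, 42.1 and 34.8 with oleic acid + FAC. The FAC libraries lay above all vehicle libraries, but the oleic acid + FAC libraries overlapped the oleic acid libraries. The log2 fold change was 0.49 (SE 0.13, edgeR adjusted p = 0.101) against vehicle, 0.19 (SE 0.13, adjusted p = 0.503) with oleic acid in both groups and 0.34 (SE 0.09, adjusted p = 0.0374) averaged. The averaged rise passed in 4 of 12 fits with a library left out. Oleic acid + FAC against FAC gave -0.33 (SE 0.13, unadjusted p = 0.0268, edgeR adjusted p = 0.707).

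PHF8, which demethylates histones at active promoters, had the second smallest p among the histone demethylases. It stood at 76.9, 88.7 and 93.8 CPM with vehicle, 87.8, 88.3 and 63.3 with oleic acid, 70.4, 82.02 and 68.2 with FAC and 69.9, 65.1 and 42.5 with oleic acid + FAC. The averaged log2 fold change was -0.33 (95% confidence interval -0.61 to -0.05, edgeR adjusted p = 0.137). Its lowest values were those of the 2 libraries that stood apart, and without both of them PHF8 passed. The other 12 histone demethylases had averaged log2 fold changes from -0.19 (KDM4B) to 0.20 (KDM4A), and none passed.

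None of the TET genes passed. TET1 stood at 30.4, 35.2 and 35.2 CPM with vehicle, 36.8, 36.5 and 19.4 with oleic acid, 33.9, 31.7 and 26.4 with FAC and 30.7, 25.3 and 19.1 with oleic acid + FAC, with an averaged log2 fold change of -0.22 (edgeR adjusted p = 0.436). TET2 stood at 21.1, 27.6 and 28.9 CPM with vehicle, 25.9, 27.1 and 14.1 with oleic acid, 24.9, 30.1 and 22.1 with FAC and 24.6, 21.5 and 14.8 with oleic acid + FAC, with -0.08 (adjusted p = 0.832). In both genes the lowest values were in the 2 libraries that stood apart. TET3 had 0.04. The median over the 17 demethylases of histones and DNA was 0.03, with 9 higher, 8 lower and 1 past the test. KDM1A and KDM1B, histone demethylases that use flavin in place of iron, were both tested. Of these 0 passed in any of the 6 comparisons, where at most 8.76% of all genes did.

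None of the 7 collagen and ER hydroxylases passed with FAC. Their averaged log2 fold change was above 0 in 6 of 7, with a median of 0.07, and above 0 in 7204 of the 14209 genes tested. In FAC against vehicle it was above 0 in 5 of 7, with a median of 0.04. ASPH, which hydroxylates aspartate and asparagine in EGF-like domains in the ER, came closest. It stood at 106, 106 and 101 CPM with vehicle, 107, 110 and 86.1 with oleic acid, 114, 137 and 121 with FAC and 133, 117 and 120 with oleic acid + FAC. All 6 FAC values lay above all 6 others, and the log2 fold change was 0.27 (SE 0.08, edgeR adjusted p = 0.0613). ASPH passed in 6 of 8 other ways of fitting the averaged effect and in 0 of 12 fits with a library left out (adjusted p from 0.0685 to 0.141).

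PLOD2, a lysyl hydroxylase of collagen telopeptides, stood at 107, 88.7 and 82.9 CPM with vehicle, 92.4, 92.8 and 68.8 with oleic acid, 94.2, 96.7 and 95.7 with FAC and 110, 91.9 and 99.4 with oleic acid + FAC. Its groups overlapped, with a log2 fold change of 0.14 (edgeR adjusted p = 0.405). The averaged values of the collagen prolyl and lysyl hydroxylases P4HA1, P4HA2, PLOD1, PLOD3 and P3H1 ran from -0.00 to 0.12. Over the 10 prolyl and lysyl hydroxylases the median was 0.00 and the range -0.14 to 0.14, with 5 higher and 5 lower. Of 12 listed collagen chains and partners of these enzymes 10 were tested and 1 passed in the averaged comparison, where 8.76% of all genes did. That was CRTAP, the partner of P3H1 in collagen prolyl hydroxylation, which rose by 0.30 (SE 0.08, edgeR adjusted p = 0.0395), from 187 ± 14.8 to 228 ± 4.76 CPM with FAC alone (SD, n = 3). It passed in 4 of 12 fits with a library left out.

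Neither OGFOD1 nor OGFOD2 passed at the gene level. OGFOD1 stood at 90.1, 81.7 and 88.5 CPM with vehicle, 87.4, 80.9 and 84.5 with oleic acid, 76.4, 71.8 and 84.3 with FAC and 82.7, 73.4 and 84.9 with oleic acid + FAC, and OGFOD2 at 7.04, 8.05 and 8.37 CPM with vehicle, 7.94, 7.41 and 10.8 with oleic acid, 7.22, 6.84 and 7.997 with FAC and 4.71, 7.83 and 7.31 with oleic acid + FAC. The averaged log2 fold changes were -0.12 and -0.24 (edgeR adjusted p = 0.360 and 0.352). Both genes' groups overlapped. Across the 39 members that did not pass in the averaged comparison, the 95% confidence intervals lay between -0.62 and 0.62 on the log2 scale.

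**Figure D3:**
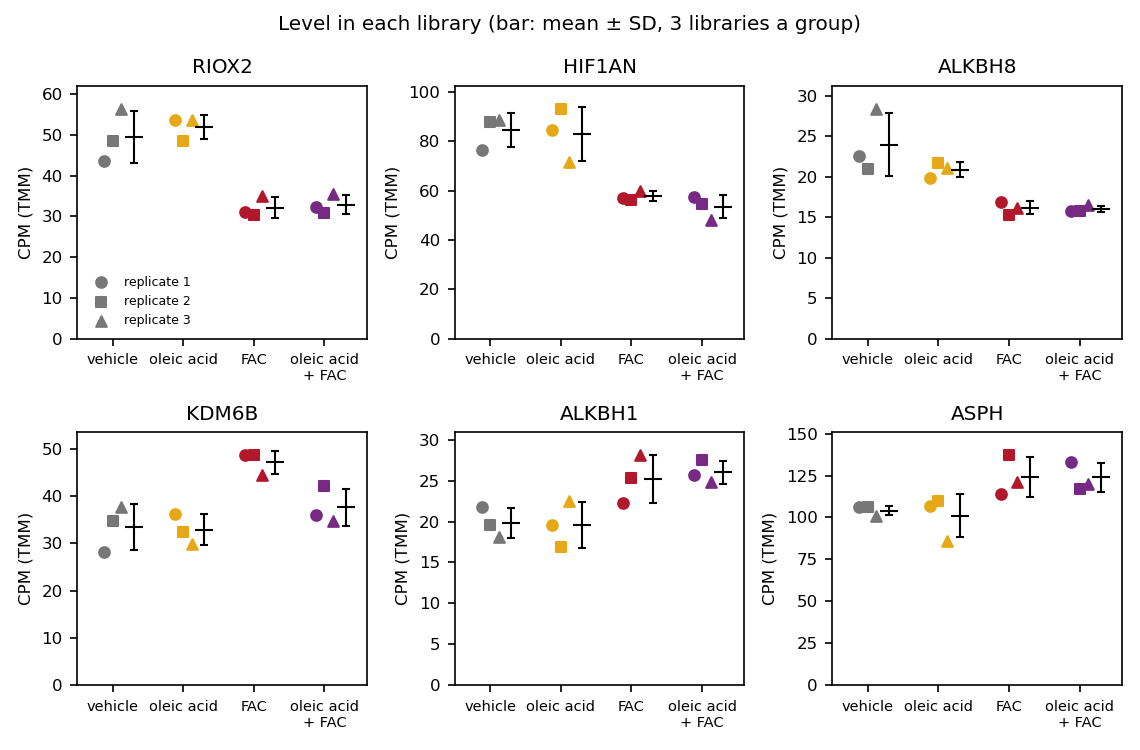
CPM with TMM scaling in each of the 12 libraries for RIOX2, HIF1AN, ALKBH8, KDM6B, ALKBH1 and ASPH (vertical axes from 0), with symbols for the replicate number and bars for mean ± SD of 3 libraries. RIOX2, HIF1AN and ALKBH8 are lower and ASPH is higher in all 6 FAC libraries than in all 6 others, and KDM6B is highest with FAC alone.

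Complete separation of the 6 FAC libraries from the 6 others was seen for 4 of 44 members, RIOX2, HIF1AN, ALKBH8 and ASPH, or 9.09%, where 6.84% of all tested genes were separated. FAC and vehicle libraries did not overlap for 9 members (20.5%, against 22.4% of all genes), and oleic acid + FAC and oleic acid libraries did not for 7 (15.9%, against 18.1%). These shares are near the background.

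The effect of iron could be compared in 2 arms that share no library, without and with oleic acid. Across the 44 members the log2 fold changes of the arms correlated with r = 0.80, and 37 of 44 had the same sign (84.1%). Over all 14209 genes r was 0.45 and 74.2% had the same sign. These describe genes within 1 experiment and not replicates. The members and all genes were not matched for level, so their values of r are not directly comparable. In FAC against vehicle the log2 fold changes ran from -0.62 to 0.49 for the members and from -7.04 to 7.68 for all genes. The interaction of oleic acid and FAC, the difference between the arms, passed for 0 of 44 members and 0.00% of all genes in edgeR (116 genes and 0 members had an unadjusted p under 0.05, and DESeq2 and limma-voom also called 0). The interaction was -0.03 (95% confidence interval -0.40 to 0.33) for RIOX2, -0.09 (-0.45 to 0.28) for HIF1AN, 0.19 (-0.20 to 0.57) for ALKBH8, 0.06 (-0.35 to 0.48) for ALKBH1 and -0.30 (-0.70 to 0.10) for KDM6B. With 3 libraries a group, the arms may differ by any amount within these intervals.

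**Figure D4:**
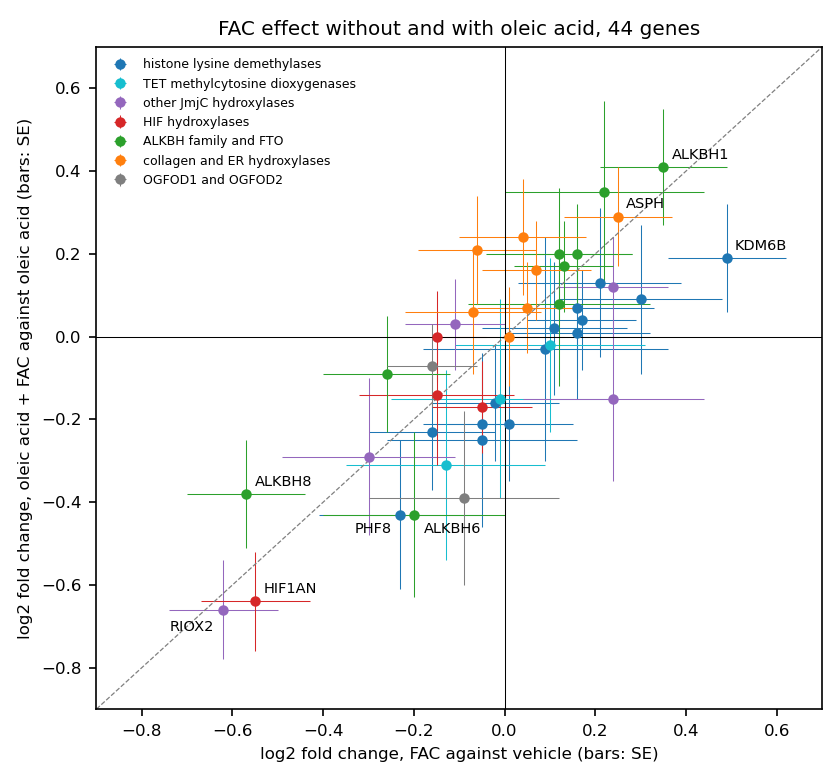
Log2 fold change of FAC against vehicle (horizontal axis) and of oleic acid + FAC against oleic acid (vertical axis) for the 44 genes, with bars for the SE, colours for the role group and a dashed line where both are equal. RIOX2 lies lowest in both arms (-0.62 and -0.66), HIF1AN at -0.55 and -0.64 and ALKBH8 at -0.57 and -0.38, and KDM6B lies furthest right at 0.49 with 0.19 on the vertical axis.

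The upstream sequences of 4 of the 5 members that changed, all but RIOX2, are shown. Beside them are those of P4HA1 and PLOD2, collagen hydroxylases on the HIF target list that did not pass. These 2 were chosen because their windows hold ACGTG, so its presence there is not a result. Of the 6 members on that list 3 hold it. EGLN1 holds it 13 bases before the RefSeq start. The whole EGLN1 window lies after the start of its most abundant transcript, so it is not shown. Each run is the RefSeq promoter window of 250 bases before the start (GRCh38.p14), printed up to the start of the gene's most abundant transcript, and 40 of 44 members had an entry. Capitals mark matches on either strand to the motifs searched: the E-box CACGTG, the HIF core written as ACGTG (which lies within the E-box) or GCGTG, the cyclic AMP element TGACGTCA, the antioxidant core TGACNNNGC, the GC box GGGCGG, the box named for its letters CCAAT, and the TATA box in the form TATAAA.
HIF1AN, chr10:100535693-100535858, plus strand: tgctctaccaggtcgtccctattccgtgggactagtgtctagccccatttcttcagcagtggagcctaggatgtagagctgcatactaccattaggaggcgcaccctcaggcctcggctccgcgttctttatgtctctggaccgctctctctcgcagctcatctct
ALKBH8, chr11:107565747-107565985, minus strand: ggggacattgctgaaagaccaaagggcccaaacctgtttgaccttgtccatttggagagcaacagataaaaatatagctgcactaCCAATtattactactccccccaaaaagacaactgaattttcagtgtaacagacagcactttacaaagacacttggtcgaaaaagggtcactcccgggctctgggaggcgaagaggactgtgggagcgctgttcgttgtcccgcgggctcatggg
ALKBH1, chr14:77708024-77708273, minus strand: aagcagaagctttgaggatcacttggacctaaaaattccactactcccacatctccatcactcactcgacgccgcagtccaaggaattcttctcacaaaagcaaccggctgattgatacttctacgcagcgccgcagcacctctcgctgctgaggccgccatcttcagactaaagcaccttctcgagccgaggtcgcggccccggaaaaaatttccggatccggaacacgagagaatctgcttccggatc
KDM6B, chr17:7839667-7839903, plus strand: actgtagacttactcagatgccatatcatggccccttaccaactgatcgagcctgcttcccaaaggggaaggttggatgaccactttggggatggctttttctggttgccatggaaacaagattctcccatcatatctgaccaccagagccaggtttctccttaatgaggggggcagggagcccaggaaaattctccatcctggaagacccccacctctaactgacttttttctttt
P4HA1, chr10:73096867-73097116, minus strand: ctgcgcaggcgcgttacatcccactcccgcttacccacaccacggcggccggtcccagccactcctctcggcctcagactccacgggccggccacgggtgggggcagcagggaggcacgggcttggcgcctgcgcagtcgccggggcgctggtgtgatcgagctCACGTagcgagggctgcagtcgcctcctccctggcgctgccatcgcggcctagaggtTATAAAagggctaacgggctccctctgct
PLOD2, chr3:146161185-146161434, minus strand: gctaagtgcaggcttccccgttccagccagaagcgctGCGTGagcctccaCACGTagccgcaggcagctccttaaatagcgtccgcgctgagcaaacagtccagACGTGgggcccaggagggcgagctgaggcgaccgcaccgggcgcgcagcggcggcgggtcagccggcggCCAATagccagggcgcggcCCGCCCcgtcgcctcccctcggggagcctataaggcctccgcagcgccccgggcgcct

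In these windows HIF1AN, ALKBH1 and KDM6B held no match to the 8 motifs, and ALKBH8 held CCAAT, 165 bases before the RefSeq start. P4HA1 held ACGTG and TATAAA, at positions -86 and -29. PLOD2 held ACGTG at -200 and -146, GCGTG at -213, CCAAT at -77 and GGGCGG at -58. ACGTG was present in 9 of the 40 member promoters (22.5%) and in 18.5% of all 35116 promoters, GCGTG in 52.5% and 32.2%, GGGCGG in 60.0% and 42.6%, and CCAAT in 35.0% and 32.0%. CACGTG was in 12.5% and 6.3%, TGACNNNGC in 7.5% and 10.9%, TATAAA in 2.5% and 10.7%, and TGACGTCA in 0.0% and 1.6%. A match describes the letters of the window only.

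Oleic acid changed no member by the test, with or without iron. Oleic acid against vehicle gave 0 of 44 calls (0.00% of all genes) in edgeR, with 118 genes and 0 members at an unadjusted p under 0.05 and 0 calls by DESeq2 and limma-voom. The members ranged from -0.22 to 0.40, with 95% confidence intervals between -0.78 and 0.83. Oleic acid + FAC against FAC also gave 0 of 44 (0.00%), with 576 genes and 1 member, KDM6B, at an unadjusted p under 0.05, 1 gene and 0 members by DESeq2 and 0 by limma-voom. There the members ranged from -0.34 to 0.40, with intervals between -0.90 and 0.87.

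In oleic acid + FAC against FAC the classes differed in their medians. All 17 demethylases of histones and DNA had a log2 fold change below 0, with a median of -0.25 and a range of -0.34 to -0.13. The 10 prolyl and lysyl hydroxylases had a median of 0.05, 8 of them above 0, and the 9 ALKBH and FTO enzymes a median of 0.07, 8 above 0. The median over all genes was 0.00, with 7044 of 14209 lower. The shift was not particular to the demethylases. Of the 24 listed enzymes that write methylation, 19 were lower and 5 higher, with a median of -0.22. No single member passed, so these counts describe the libraries. In oleic acid against vehicle the 17 demethylases were likewise all lower, with a median of -0.10, while the prolyl and lysyl hydroxylases had -0.02 and the ALKBH and FTO enzymes 0.03. The listed writers had 20 lower and 4 higher there, with a median of -0.07.

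The class medians are given beside transcript length and without the 2 libraries that stood apart, and their cause was not tested. The 17 demethylases have a median transcript length of 5766 bases, the prolyl and lysyl hydroxylases 2626, the ALKBH and FTO enzymes 1975 and all genes 2805. In oleic acid + FAC against FAC the log2 fold change correlated with log2 length with r = -0.76 over the 44 members and -0.37 over 14030 genes, and in oleic acid against vehicle with -0.65 and -0.24. In FAC against vehicle, which compares neither of those libraries, r was 0.00 over the members. Without the 2 libraries the demethylase median became 0.03 in oleic acid against vehicle, 13 of 17 higher. In oleic acid + FAC against FAC it became -0.13, 16 of 17 lower, and r over the members -0.56. With a smooth trend of each library on transcript length removed, the demethylase median in that comparison was -0.08, 15 of 17 lower, and r was 0.07. That r is small by construction, since the removal takes out any dependence on length, whatever its source. The prolyl and lysyl median there was 0.04 without the 2 libraries and 0.05 with the trend removed, and the ALKBH and FTO median 0.07 and -0.00. The median deviation of the 14 histone demethylases was -0.25 and -0.30 in those 2 libraries and -0.23 (the first vehicle library) to 0.15 in the others.

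**Figure D5:**
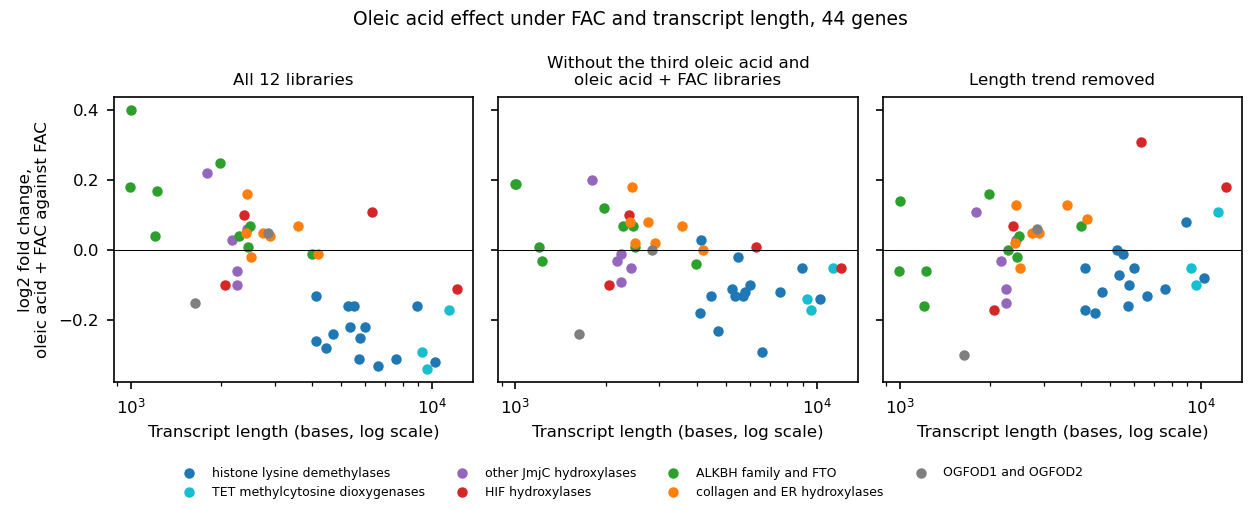
Log2 fold change of oleic acid + FAC against FAC (vertical axis) against transcript length in bases (horizontal axis, log scale) for the 44 genes, coloured by role group, with all libraries, without the 2 libraries that stood apart, and with the length trend removed. The slope seen with all libraries (r = -0.76) is r = -0.56 without the 2 libraries. Once the trend is removed r is 0.07, which is small by construction.

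At the level of single transcripts, 196 transcripts of the members were tested among 51464. In the averaged FAC comparison 2 of the 196 passed (1.02%, against 0.299% of all transcripts). None of the 196 did in FAC against vehicle (0.00777% of all transcripts), with oleic acid in both groups (0.0117%), in oleic acid + FAC against FAC or the interaction (0.00194% each) or in oleic acid against vehicle (0.00%). HIF1AN-201, which held 92.2% of the counts of HIF1AN, had a log2 fold change of -0.59 (SE 0.08, edgeR adjusted p = 0.0206), as the gene did. OGFOD2-201 held 19.5% of the counts of OGFOD2. It stood at 2.68, 1.51 and 2.53 CPM with vehicle, 1.47, 2.07 and 3.76 with oleic acid, 1.78, 1.48 and 0.841 with FAC, and 0.00 in all 3 oleic acid + FAC libraries (adjusted p = 0.0212). It was listed at 0 only in the group with both agents, where other transcripts of the gene held counts, and counts of a pseudoaligner are divided between similar transcripts by estimation. With 1 library left out 0 of the 196 passed, unless that library was the third oleic acid, the first oleic acid + FAC or the last oleic acid + FAC library, when 2 passed.

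The transcripts of the other genes that changed did not pass singly. ALKBH8-205 held 96.2% of its gene's counts and had -0.48 (edgeR adjusted p = 0.134), and KDM6B-201 held 93.0% and had 0.39 (adjusted p = 0.214). RIOX2 was divided between RIOX2-203 (48.9%, log2 fold change -0.46, adjusted p = 0.175) and RIOX2-202 (28.1%, -0.72, adjusted p = 0.340), both lower with FAC. ALKBH1-201 held 66.1% and had 0.39 (adjusted p = 0.598).

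Among 20 listed dioxygenases of the same superfamily that were not members, 18 were tested. In the averaged comparison 1 passed, where 8.76% of all genes did. JMJD4, a lysyl hydroxylase of a translation termination factor, was 52.9 ± 5.97 CPM with vehicle, 53.3 ± 5.65 with oleic acid, 20.5 ± 1.44 with FAC and 23.5 ± 1.67 with oleic acid + FAC (SD, n = 3 each). The log2 fold change was -1.37 (SE 0.12, edgeR adjusted p = 1.9e-04) against vehicle, -1.18 (SE 0.12, adjusted p = 5.5e-04) with oleic acid in both groups and -1.27 (SE 0.09, adjusted p = 4.9e-06) averaged. JMJD4 shares 4987 bases with SNAP47 on the other strand, 2323 of them in exons of both, and reads of those exons cannot be told apart without strand.

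Genes that supply the cofactors showed a change in 1 list. Of 8 listed genes of ascorbate transport and iron delivery 7 were tested. In the averaged comparison 1 passed, where 8.76% of all genes did. That was TFRC, the transferrin receptor through which cells take up iron, which fell in both arms. It was 122 ± 10.6 CPM with vehicle and 19.5 ± 2.62 with FAC, and 103 ± 39.6 with oleic acid and 14.6 ± 1.57 with both (SD, n = 3), with an averaged log2 fold change of -2.73 (SE 0.18, edgeR adjusted p = 3.8e-06). None of 14 tested genes that make or use 2-oxoglutarate passed in any of the 6 comparisons, with an averaged median of 0.03. The same held for the 10 genes that remove succinate, fumarate or 2-hydroxyglutarate, with an averaged median of 0.11. Of all genes, at most 8.76% passed in any 1 comparison, the averaged one. Counts of 0 in lists this short are near that share.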

How the data were processed

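RNA of 12 HEK293 libraries (RNA integrity number 10, poly-A selected, TruSeq) was quantified by the authors, who deposited estimated counts per gene and per transcript. Per the submitters' processing notes the tools were bcl2fastq 2.19, kallisto 0.46.1 and sleuth 0.30.0 with GRCh38.p12 (hg38), and neither the strand setting nor the annotation release is given. The deposited gene values were already whole (100.0%).

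In R 4.3.3, edgeR 4.0.16 (filterByExpr, TMM, quasi-likelihood F test, two-sided) was fitted once to all 12 libraries, with 6 contrasts and Benjamini-Hochberg adjustment over 14209 genes or 51464 transcripts. Log2 fold changes come from that fit, and ± is the SD of CPM over libraries. Alternatives were DESeq2 1.42.0, its size factors in edgeR, limma-voom (limma 3.58.1), no filter, only the libraries compared, a replicate block, each library left out, the 2 libraries that stood apart left out, and removal of a length trend (lowess span 0.3, prior count 2). Transcripts were matched to GENCODE 29 by ID without version (89.9%). The edgeR fit was also run on counts simulated from its own dispersions with independent libraries, which cannot test the assumptions of that model.

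Values in every library are given for members past the test, the 2 of each role group with the smallest adjusted p for FAC averaged over oleic acid, and those with an unadjusted p under 0.05 there. Genes of other lists are named where past the test, and VHL, TET3 and others beside them were chosen after their values were seen. Members and lists were chosen with earlier results of these data known.

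Replicate numbers are in the labels. Correlations of the deviations of same-numbered libraries from their group means were 0.46, 0.30 and 0.61 between oleic acid and oleic acid + FAC. Between FAC and oleic acid + FAC they were 0.23, 0.22 and 0.34. They were 0.24, 0.30 and -0.01 between vehicle and FAC, and -0.05, 0.27 and -0.03 between vehicle and oleic acid. The 0.61 belongs to the 2 libraries that stood apart. Differently numbered libraries reached 0.26 (second oleic acid and first oleic acid + FAC). Whether the numbers mark pairs cannot be told from these values. No 2 libraries of a group were alike within sampling noise (chi-square per degree of freedom 8.54 to 130).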

Additional observations from a re-analysis of the deposited data

How the results depend on the processing

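RIOX2, HIF1AN and ALKBH8 stayed past the test for the averaged FAC effect in all 12 fits with a library left out and all 8 other alternatives; KDM6B did in 4 of 12 and 7 of 8, and ALKBH1 in 5 of 12 and 8 of 8. Members past the test for that effect numbered 5, 8 without the 2 libraries that stood apart, 8 with the length trend removed, 14 with the length trend removed and a replicate block, and 3 to 7 with a library left out. The 3 were RIOX2, HIF1AN and ALKBH8, without the second library of any group or without the third FAC library. For FAC against vehicle they numbered 3, 1 with no filter on low counts, and 0 to 1 with a library left out. With oleic acid in both groups they numbered 2, 5 with the length trend removed, 7 with that and a replicate block, 0 with only the libraries compared, and 0 to 2 with a library left out, being 0 without the first oleic acid or the second oleic acid + FAC library. The replicate block alone gave 3, 2 and 6 members for these comparisons in that order of FAC against vehicle, FAC with oleic acid in both groups and the averaged effect, and among all genes 431, 740 and 2211 in place of 169, 314 and 1244. It changed no member's call but that of ASPH, which passed with the block. Counts over all genes ranged from 27 to 1118, 19 to 1980 and 738 to 3740 over the alternatives.

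Member transcripts past the test numbered 2, 0 with no filter, 1 with a replicate block and 0 to 2 with a library left out, an alternative chosen after seeing the data. The demethylase median for oleic acid + FAC against FAC was -0.31 to -0.07 over the alternatives. The averaged TET2 value of -0.08 ranged from -0.20 to 0.01 with a library left out, and was 0.00 without the second oleic acid library and 0.01 without the third oleic acid + FAC library. Oleic acid and interaction comparisons gave 0 members throughout. The causes were not tested. With 3 libraries a group, a member that did not pass may differ by any amount within its own confidence interval.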
